A study of Homo sapiens with 12 samples.

Results

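DACH1, EYA1, EYA2, EYA3, EYA4, SIX2, SIX4 and SIX5 encode a network of transcription regulators, and their RNA was followed in IGROV-1, an established line of human ovarian carcinoma cells, with and without an shRNA against the chemokine receptor CXCR4. The 8 genes were taken with every probe set that the platform annotation assigns to them alone, which gave 20 of the 54675 probe sets on the Affymetrix Human Genome U133 Plus 2.0 array. These 20 were among 41097 probe sets with a single gene symbol, which cover 19775 genes. The set was chosen by the log2 values of DACH1 and EYA4, which had been seen to be far lower in both knockdown lines than in Mock, so the differences of these 2 genes against either control are given as a description, with limma's standard error and no test. The other 6 genes were tested, and so were all 8 between the knockdown lines.

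The 12 arrays form 4 groups of 3, all of IGROV-1 cells. Parental cells were not transfected. Mock cells carried a plasmid with a scrambled short hairpin RNA (shRNA), and the lines shCXCR4 I and shCXCR4 II carried 2 different shRNA sequences directed at CXCR4. Mock and both shCXCR4 lines had been transfected with a lipid reagent and selected in 4 µg/ml puromycin for 30 days. Mock was a pool of clones while each shCXCR4 line was a single clone, so knockdown and clonal origin cannot be told apart in any comparison with a control. The labels do not say whether the 3 arrays of a group came from separate cultures, so a p-value here reflects the scatter of arrays within groups, possibly technical.

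The sine oculis homeobox proteins, among them those of SIX2, SIX4 and SIX5, are homeodomain factors that bind DNA, and EYA proteins are coactivators that do not bind DNA themselves but are brought to target genes by sine oculis proteins. EYA proteins also carry a protein tyrosine phosphatase domain. DACH1 is related to the SKI family of corepressors and can turn down the transcription they drive. The genes form a network first described in eye development, work with PAX factors in the kidney, muscle and inner ear, and are expressed in an altered way in several carcinomas, with EYA2 and DACH1 among those described in ovarian tumours.

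Values are log2 intensities of a probe set, so a difference of 1 is a doubling of signal. They can be compared between arrays for the same probe set, not between probe sets. The median over all probe sets was 4.25 to 4.39 per array, and arrays of a group correlated at 0.996 to 0.998. Values were spread most widely in Mock, with an interquartile range of 3.38 to 3.43 against 3.19 to 3.31 elsewhere. The targeted gene CXCR4 averaged 8.58 ± 0.06 (SD, n = 3) in Mock and 8.33 ± 0.08 in Parental, against 7.09 ± 0.02 in shCXCR4 I and 6.62 ± 0.20 in shCXCR4 II, so residual CXCR4 signal remained in both lines. Of 9 measured markers of ovarian carcinoma epithelium, 8 lay above the array median on all Parental, Mock and shCXCR4 I arrays and 7 on all shCXCR4 II arrays. The lists of other cell types also held genes above the array median on all arrays of a group: 1 of 4 measured leukocyte genes in Parental and Mock and 2 of 4 in each line, 3 of 5 endothelial and 2 of 5 fibroblast genes in every group. PTPRC, the general leukocyte marker, averaged 3.01 to 3.13, while CD3E averaged 5.09 to 5.48. A gene was called at a Benjamini-Hochberg adjusted p under 0.05 in limma, over all 19775 genes, or over all 41097 single-symbol probe sets where a second probe set of a gene is described. The number of arrays, 3 per group, limits the precision throughout.

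DACH1 and EYA4, whose levels differed most between the groups, are shown by the 250 bases upstream of their annotated RefSeq transcription starts (GRCh38.p14), with CG dinucleotides in capitals, because the windows differ in CG content. The DACH1 window is chr13:71867205-71867454 on the minus strand and the EYA4 window is chr6:133241107-133241356 on the plus strand.
DACH1: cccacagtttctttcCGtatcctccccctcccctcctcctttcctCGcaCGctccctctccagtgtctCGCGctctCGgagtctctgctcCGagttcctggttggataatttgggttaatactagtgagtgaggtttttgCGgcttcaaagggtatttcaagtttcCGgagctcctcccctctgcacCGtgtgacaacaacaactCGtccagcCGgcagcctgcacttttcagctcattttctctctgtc
EYA4: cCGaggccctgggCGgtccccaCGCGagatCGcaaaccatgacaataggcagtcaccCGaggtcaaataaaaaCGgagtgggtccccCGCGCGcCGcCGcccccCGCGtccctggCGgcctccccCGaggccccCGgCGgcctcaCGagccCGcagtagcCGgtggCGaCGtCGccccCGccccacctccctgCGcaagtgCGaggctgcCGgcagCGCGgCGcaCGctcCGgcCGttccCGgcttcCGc
The DACH1 window holds 12 CG dinucleotides and 54% G+C, close to the medians of 11 and 58% over 27305 RefSeq windows of this length. The EYA4 window holds 36 CG dinucleotides and 75.2% G+C, more CG dinucleotides than 95.3% of the windows. Neither window contains, on either strand, the core of the MEF3 site that sine oculis proteins bind (TCAGGTT, present in 2.81% of all windows), a TATA box (TATAAA, 11.1%) or the palindromic E-box (CACGTG, 6.49%). The same held for the windows of EYA3, SIX2 and SIX4. The arrays hold no measurement at these windows.

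DACH1, the corepressor, was at its highest in Mock, intermediate in Parental and lowest in both knockdown lines. On the probe set that represents the gene (228915_at), the Mock arrays read 7.04, 6.99 and 7.00 and the Parental arrays 5.50, 5.53 and 5.48. The shCXCR4 I arrays read 2.52, 2.45 and 2.82 and the shCXCR4 II arrays 2.78, 2.68 and 2.63. Every array of both lines was thus below the median of its array, Parental and Mock were above it, and the values of the lines interleaved. The log2 difference from Mock was -4.41 in shCXCR4 I and -4.31 in shCXCR4 II (limma SE 0.08 for both). Against Parental it was -2.91 and -2.81, because Mock itself lay 1.50 above Parental. The size of the difference therefore depended on which control was used, and its direction did not. In bulk RNA, fewer cells with a transcript and less of it per cell cannot be told apart. Between the lines the log2 difference was -0.10 (SE 0.08, adjusted p = 0.578).

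The other 2 DACH1 probe sets gave the same order of the controls and lines. On 205471_s_at the Mock arrays read 6.60, 6.72 and 6.81 and the Parental arrays 4.75, 5.02 and 5.20, while the 6 arrays of the lines lay between 2.87 and 3.23. On 205472_s_at Mock read 5.42, 5.60 and 5.45, Parental 4.23, 4.13 and 4.06, and the lines 2.69 to 3.20. On both, each line lay below every Parental array and Parental below every Mock array. The log2 differences from Mock were -3.77 in shCXCR4 I and -3.58 in shCXCR4 II on the former, and -2.44 and -2.74 on the latter. Mock exceeded Parental by 1.72 and 1.35. The order of the lines against each other was not settled: shCXCR4 I minus shCXCR4 II was -0.18 (adjusted p = 0.411) on 205471_s_at and 0.30 (adjusted p = 0.0672) on 205472_s_at. Among all 19775 genes, 1 had a wider range of group means than the 4.41 of DACH1, which is a description of how the gene came to be chosen. With all 3 probe sets averaged, the differences from Mock were -3.54 and -3.55.

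**Figure D1:**
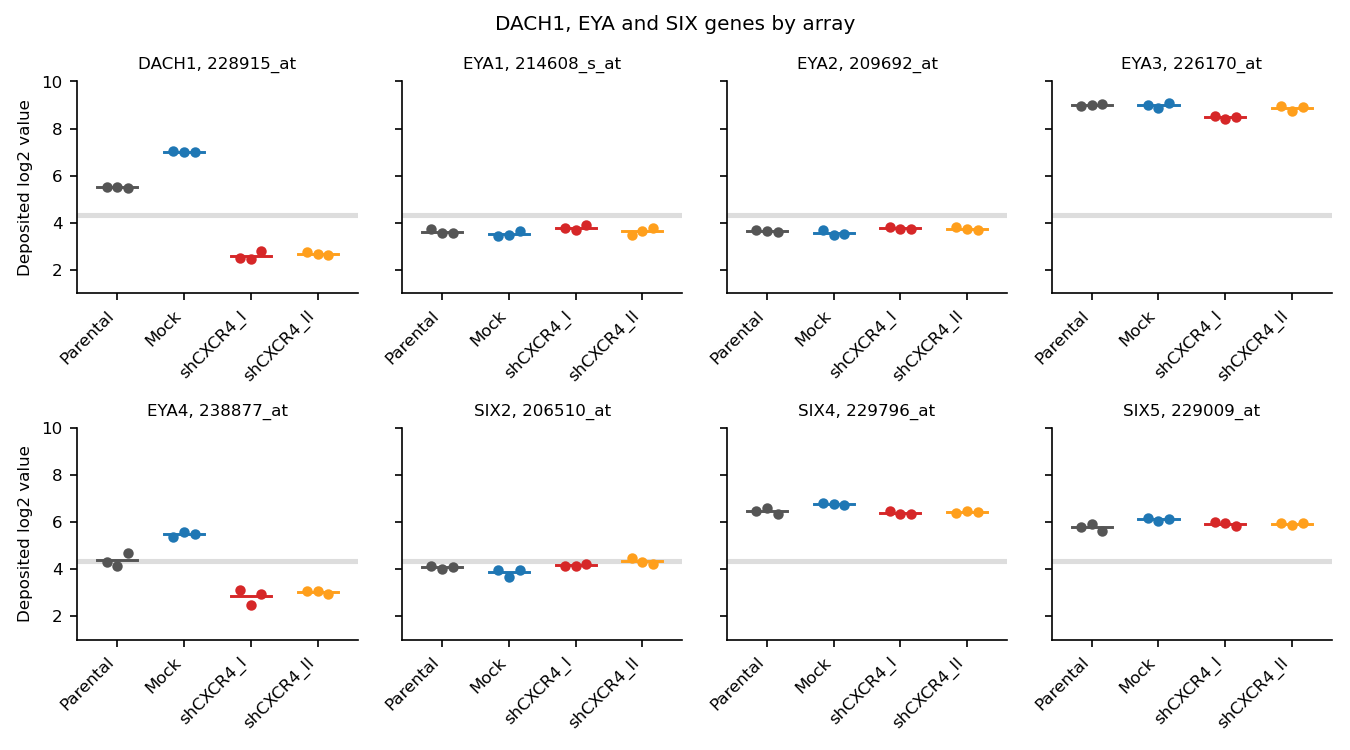
Deposited log2 value of each of the 8 genes on each of the 12 arrays (points, 3 per group), with the group mean as a bar and the range of the array medians, 4.25 to 4.39, as a gray band. DACH1 and EYA4 were highest in Mock, intermediate in Parental and below the band in both shCXCR4 lines. Within each of the other 6 genes, the group means lay within 0.53 of each other.

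EYA4, a coactivator with roles in the inner ear and heart, followed the order of DACH1. On 238877_at the Mock arrays read 5.39, 5.60 and 5.51 and the Parental arrays 4.29, 4.14 and 4.69. The shCXCR4 I arrays read 3.13, 2.49 and 2.96 and the shCXCR4 II arrays 3.07, 3.08 and 2.96. The lines were below every Parental array and below the array medians, Parental straddled the array medians, and the lines overlapped each other. The log2 difference from Mock was -2.64 in shCXCR4 I and -2.46 in shCXCR4 II (SE 0.15 for both). Against Parental it was -1.52 and -1.34, and Mock lay 1.13 above Parental. Between the lines it was -0.18 (SE 0.15, adjusted p = 0.585). The range of its group means, 2.64, was exceeded by 22 genes.

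The remaining EYA4 probe sets showed little of this. On 207327_at, which was below the array medians in all groups, Mock read 2.96, 2.92 and 3.04 and lay above every other array, with differences of -0.45 and -0.58 for the lines. Parental there lay between 2.57 and 2.64, within the 2.44 to 2.65 of shCXCR4 I. On 1561088_at the lines differed from Mock by 0.12 and 0.01, and all groups were dim. With the 3 probe sets averaged, the EYA4 differences from Mock shrank to -0.99 and -1.01. The EYA4 difference of over 2 log2 units was thus carried by 238877_at alone, the EYA4 probe set that reached the array medians in the controls, whereas all 3 DACH1 probe sets showed one of that size.

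**Figure D2:**
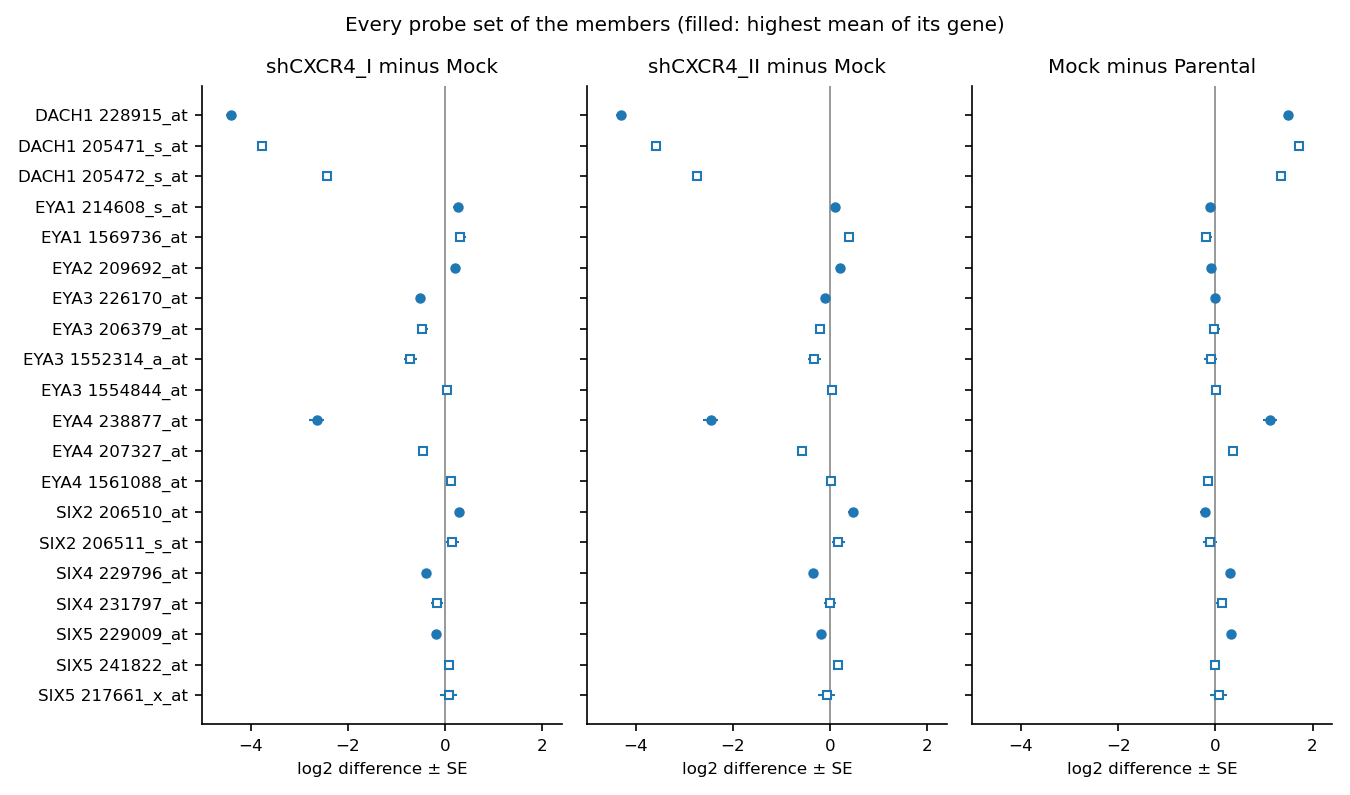
Log2 difference ± limma SE of all 20 probe sets for shCXCR4 I minus Mock, shCXCR4 II minus Mock and Mock minus Parental, with the probe set that represents each gene as a filled point. The 3 DACH1 probe sets lie between -4.41 and -2.44 in both lines, while the EYA4 probe sets spread from -2.64 to 0.12.

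EYA3 fell in shCXCR4 I and was the single gene of the 8 to differ between the knockdown lines. EYA3 is a broadly expressed member whose tyrosine phosphatase activity acts on the histone H2AX. On 226170_at the shCXCR4 I arrays read 8.52, 8.41 and 8.48, against 8.99, 8.86 and 9.09 in Mock. The shCXCR4 II arrays read 8.98, 8.73 and 8.92 and the Parental arrays 8.96, 9.01 and 9.03. All shCXCR4 I arrays were below all other arrays, and the other 3 groups lay close together. The log2 difference of shCXCR4 I was -0.51 from Mock (SE 0.08, adjusted p = 0.000331), -0.53 from Parental (adjusted p = 0.000287) and -0.40 from shCXCR4 II (adjusted p = 0.00607). In shCXCR4 II the difference was -0.11 from Mock (adjusted p = 0.330) and -0.12 from Parental (adjusted p = 0.309), and Mock minus Parental was -0.02 (adjusted p = 0.919).

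The EYA3 fall in shCXCR4 I passed the test on 3 of its 4 probe sets, where 17.6% of all single-symbol probe sets passed, and in shCXCR4 II on 0 of 4 by limma, where 19.4% did. It was -0.47 on 206379_at (adjusted p = 0.00766) and -0.71 on 1552314_a_at (adjusted p = 0.00209), and 1554844_at gave 0.04 (adjusted p = 0.699). The difference between the lines had the same sign on the former 2 without passing, at -0.25 (adjusted p = 0.244) and -0.39 (adjusted p = 0.136), where 4.11% of probe sets passed. The contrast between the lines passed on 226170_at alone, and with the 4 probe sets averaged it was -0.26 and passed. In shCXCR4 II the difference from Mock on 206379_at was -0.22 (adjusted p = 0.172), with overlapping arrays. On 1552314_a_at it was -0.32 from Mock (adjusted p = 0.104) and -0.42 from Parental (adjusted p = 0.0531). Every shCXCR4 II array lay below every Mock and Parental array on that probe set, so a smaller fall there was not settled.

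EYA1 and EYA2, which act with sine oculis proteins in kidney and muscle precursors, were dim in every group, with all arrays below the array medians. EYA2 read 3.68, 3.50 and 3.51 in Mock, 3.83, 3.73 and 3.74 in shCXCR4 I, 3.84, 3.75 and 3.68 in shCXCR4 II and 3.68, 3.64 and 3.62 in Parental. The shCXCR4 I arrays were above all Mock arrays by a margin smaller than the spread within Mock. EYA2 rose by 0.20 in shCXCR4 I against Mock (SE 0.07, adjusted p = 0.0437), and the difference in shCXCR4 II was 0.19 (adjusted p = 0.0520), which passed without Mock replicate 1 (0.25, adjusted p = 0.0198) or shCXCR4 II replicate 3 (0.23, adjusted p = 0.0280). The EYA2 call in shCXCR4 I ended with quantile normalization (0.15, adjusted p = 0.105), with arrays centred on their medians (0.14, adjusted p = 0.151) and without any 1 of 9 of the 12 arrays, where the lowest value was 0.17 (adjusted p = 0.145, without Mock replicate 2). It also ended with a trended and robust variance (adjusted p = 0.119), in a fit of the compared groups alone (adjusted p = 0.0703) and without _x_at and _s_at probe sets (adjusted p = 0.0609). EYA1 read 3.44, 3.49 and 3.65 in Mock, 3.76, 3.68 and 3.90 in shCXCR4 I, 3.46, 3.67 and 3.77 in shCXCR4 II and 3.74, 3.57 and 3.57 in Parental. Its differences from Mock were 0.25 (adjusted p = 0.0593) and 0.11 (adjusted p = 0.410). On the second EYA1 probe set, 1569736_at, they were 0.31 (adjusted p = 0.0721) and 0.39 (adjusted p = 0.0264). EYA1 thus passed in shCXCR4 II on 1569736_at and in neither line on the probe set that represents it. Leaving out Mock replicate 3 (0.32, adjusted p = 0.0415), or shCXCR4 II replicate 1 or 3 (adjusted p = 0.0341 and 0.0455), brought the latter past the test in shCXCR4 I. With both EYA1 probe sets averaged, EYA1 passed in both lines, at 0.28 (adjusted p = 0.0123) and 0.25 (adjusted p = 0.0248).

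SIX2, a homeodomain factor that keeps kidney progenitors undifferentiated, rose in both lines against Mock from a low level. On 206510_at Mock read 3.97, 3.69 and 3.97, shCXCR4 I 4.12, 4.15 and 4.23, and shCXCR4 II 4.47, 4.33 and 4.20. Parental read 4.15, 4.02 and 4.10, overlapping shCXCR4 I. The 6 arrays of the lines lay above every Mock array. The log2 difference from Mock was 0.29 in shCXCR4 I (SE 0.09, adjusted p = 0.0281) and 0.46 in shCXCR4 II (adjusted p = 0.00224), and 0.24 for shCXCR4 II against Parental (adjusted p = 0.0811). Mock minus Parental was -0.22 (adjusted p = 0.120). The call in shCXCR4 I ended without the lowest Mock array, replicate 2 (0.20, adjusted p = 0.121), and without shCXCR4 I replicate 2 (0.30, adjusted p = 0.0609) or 3 (0.26, adjusted p = 0.102). It also ended with quantile normalization (0.23, adjusted p = 0.0512), with centred arrays (0.23, adjusted p = 0.0527) and with the SIX2 probe sets averaged (0.22, adjusted p = 0.123). The second probe set, 206511_s_at, gave 0.14 (adjusted p = 0.515) and 0.17 (adjusted p = 0.408).

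The differences of EYA1, EYA2 and SIX2 from Mock, of which those of EYA2 in shCXCR4 I and of SIX2 in both lines passed, lie in a range of low signal where the median difference over genes was also above 0. The 6655 genes whose mean lay below the lowest array median had a median difference from Mock of 0.07 in shCXCR4 I and 0.09 in shCXCR4 II, against -0.02 and -0.04 in the other 13120 genes. The Mock arrays also had the widest spread of values, as given above. The part of either in the differences of these genes was not tested.

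SIX4, a homeodomain factor of muscle and nerve precursors, was higher in Mock than in each of the other 3 groups. On 229796_at Mock read 6.82, 6.78 and 6.73, shCXCR4 I 6.47, 6.34 and 6.35, and shCXCR4 II 6.39, 6.47 and 6.41. Parental read 6.47, 6.60 and 6.37, within reach of both lines. All Mock arrays lay above all others, and the 3 remaining groups overlapped. SIX4 fell against Mock in both lines, with log2 differences of -0.39 in shCXCR4 I (SE 0.07, adjusted p = 0.00101) and -0.35 in shCXCR4 II (adjusted p = 0.00217). Mock was 0.30 above Parental (adjusted p = 0.00904), and against Parental the lines differed by -0.09 (adjusted p = 0.413) and -0.06 (adjusted p = 0.622). The fall thus passed against Mock and not against Parental. On 231797_at the differences from Mock were -0.17 and -0.01 and did not pass, and with the probe sets averaged the shCXCR4 II difference was -0.18 (adjusted p = 0.0847) and Mock minus Parental 0.21 (adjusted p = 0.0665).

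SIX5, which lies beside the myotonic dystrophy gene DMPK, rose in Mock against Parental on 229009_at alone and lay in between in the lines there. On 229009_at Parental read 5.80, 5.94 and 5.64 and Mock 6.17, 6.06 and 6.12, while shCXCR4 I read 5.99, 5.97 and 5.84 and shCXCR4 II 5.96, 5.87 and 5.95. Both lines lay below every Mock array and overlapped Parental. Mock minus Parental was 0.32 (SE 0.08, adjusted p = 0.0118), and the lines differed from Mock by -0.18 (adjusted p = 0.104) and -0.19 (adjusted p = 0.0858). Without the lowest Parental array, replicate 3, the former was 0.25 (adjusted p = 0.0585), and with the 3 SIX5 probe sets averaged it was 0.13 (adjusted p = 0.339). Centring the arrays brought both differences from Mock past the test (-0.25, adjusted p = 0.0354, and -0.27, adjusted p = 0.0222). On 241822_at, which stayed above the array medians, Mock minus Parental was -0.002 (adjusted p = 0.993). The lines there differed from Mock by 0.08 (adjusted p = 0.570) and 0.15 (adjusted p = 0.259). On 217661_x_at Mock minus Parental was 0.07 (adjusted p = 0.867), and the lines differed from Mock by 0.07 and -0.08 without passing.

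Taking the 6 tested genes side by side, 4 passed in shCXCR4 I against Mock (EYA2 and SIX2 higher, EYA3 and SIX4 lower), where 23.6% of all genes passed. That count was 2 without Mock replicate 2, shCXCR4 I replicate 2 or shCXCR4 I replicate 3. Those fits called 3464, 3668 and 3314 of all 19775 genes, against 4670 with all arrays. In shCXCR4 II against Mock 2 passed (SIX2 higher, SIX4 lower), where 26.1% of all genes did. Both comparisons share the Mock arrays. In Mock against Parental 2 passed (SIX4 and SIX5, both higher), with a background of 15.0%. Without Parental replicate 3 SIX4 alone passed, where 2079 of all genes did against 2968 with all arrays. Against Parental, EYA3 alone passed in shCXCR4 I, where 16.8% of genes did, and 0 of 6 passed in shCXCR4 II by limma, where 17.0% did and 1 of the 6 had an unadjusted p under 0.05. That one was SIX2, which passed without Mock replicate 2 (0.24, adjusted p = 0.0418) or shCXCR4 II replicate 3 (0.30, adjusted p = 0.0364). Between the lines EYA3 passed alone among 8 genes, against 7.15% of all genes. The median difference of the 6 genes was 0.01 in shCXCR4 I and 0.00 in shCXCR4 II against Mock, close to the 0.02 of all genes in each.

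The groups of arrays did not overlap for 6 of the 6 tested genes in shCXCR4 I against Mock, where 41.6% of all genes were free of overlap, and for 3 of 6 in shCXCR4 II, where 36.4% were. Ordered by mean, Mock was the highest group for SIX4 and SIX5 among the 6 tested genes, and for 27.9% of all genes. It was the lowest for EYA1, EYA2 and SIX2, and for 32.7% of all genes. EYA3 alone was highest in Parental. The range of group means was 0.53 in EYA3, 0.46 in SIX2, 0.39 in SIX4, 0.32 in SIX5, 0.25 in EYA1 and 0.20 in EYA2, beside a median of 0.23 over all genes.

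The genes whose patterns were most like DACH1 and EYA4 were found by the root mean square difference between centred log2 values over the 12 arrays. Nearest to DACH1 were the calcium sensor NCALD (0.56, r = 0.974), the membrane-associated BASP1 (0.61, r = 0.980), the HMG-box factor TOX3 (0.70, r = 0.962), THSD7A (0.71, r = 0.937) and, as the fifth, EYA4 (0.84, r = 0.981). Nearest to EYA4 were TCF7L1, a transcription factor of the WNT pathway (0.26, r = 0.972), the antimicrobial peptide gene DEFB1 (0.27, r = 0.971), the steroid sulfatase STS (0.38, r = 0.976), TOX3 (0.39, r = 0.969) and the small heat shock protein gene HSPB3 (0.40, r = 0.963). TOX3 was in both lists. DACH1 stood at rank 225 from EYA4, as its differences were larger and its group order the same. These likenesses come from 12 arrays in 4 groups and are a description. DACH1 and EYA4 were both chosen for lower values in the lines than in Mock. Their likeness to each other therefore follows in part from that choice.

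**Figure D3:**
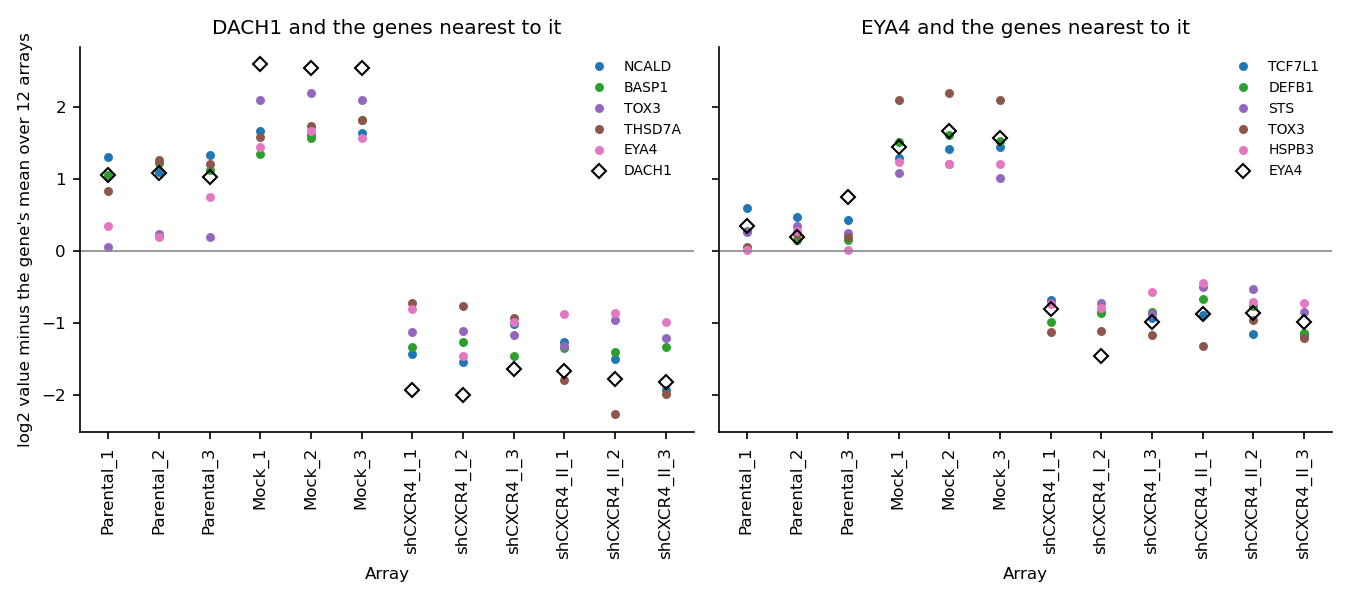
Log2 values centred on each gene's mean across the 12 arrays for DACH1 and EYA4 (open diamonds) with the 5 genes nearest to each. Every gene shown lies below its mean on the 6 arrays of the shCXCR4 lines and above it in Mock, where DACH1 stands higher than its 5 nearest genes.

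The genes beside DACH1 on chromosome 13 and beside EYA4 on chromosome 6 had differences of a far smaller size. In the order TDRD3, PCDH9, KLHL1, DACH1, MZT1, BORA and DIS3, the 6 neighbours of DACH1 lay between -0.42 and 0.36 against Mock in the lines. BORA, an activator of the mitotic kinase Aurora A, fell in shCXCR4 I (-0.42, adjusted p = 0.000437) and shCXCR4 II (-0.20, adjusted p = 0.0405). DIS3, an exosome nuclease, fell in shCXCR4 II (-0.39, adjusted p = 0.000844), and KLHL1 rose there (0.36, adjusted p = 0.0111). TDRD3 (-0.24, adjusted p = 0.0362) and PCDH9 (0.24, adjusted p = 0.0460) passed in shCXCR4 I. The calls for DIS3, KLHL1 and PCDH9 ended in a fit without _x_at and _s_at probe sets (-0.05, 0.01 and 0.02), and those for TDRD3 and for BORA in shCXCR4 II ended with quantile normalization (adjusted p = 0.0724 and 0.503). The TDRD3 call also ended without Mock replicate 1 or 3 or shCXCR4 I replicate 2 or 3 (adjusted p up to 0.150), that of PCDH9 without any 1 of 7 arrays (up to 0.192) and that of BORA in shCXCR4 II without any 1 of 9 arrays (up to 0.154).

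Around EYA4 the order was VNN2, SLC18B1, RPS12, EYA4, TCF21, TBPL1 and SLC2A12. SLC18B1, a polyamine transporter, rose in shCXCR4 I by 0.56 (adjusted p = 0.000153) and gave -0.21 in shCXCR4 II (adjusted p = 0.0569). SLC2A12, a glucose transporter, rose in shCXCR4 I by 0.75 (adjusted p = 5.05e-05) and gave 0.24 in shCXCR4 II (adjusted p = 0.0625). VNN2, RPS12, TCF21 and TBPL1 stayed between -0.07 and 0.15 in both lines and did not pass. Around DACH1 3 of 6 neighbours passed in each line, in both directions, and 2 of 6 and 0 of 6 around EYA4, against the backgrounds of 23.6% and 26.1% given above. For SLC2A12 the call ended without _x_at and _s_at probe sets (0.25, adjusted p = 0.0837).

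**Figure D4:**
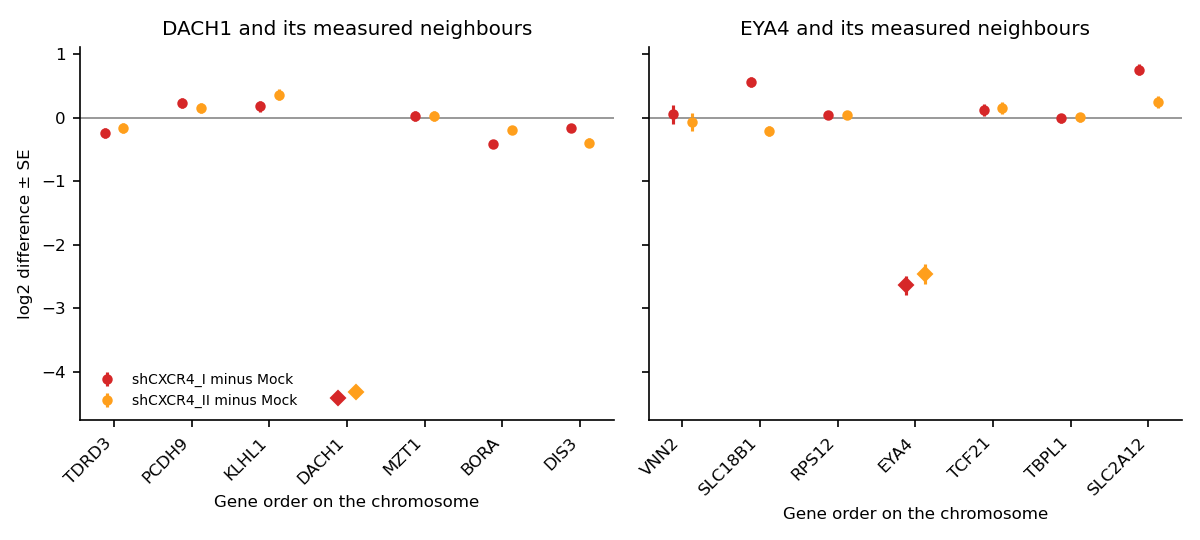
Log2 difference from Mock ± limma SE of DACH1 and EYA4 (diamonds) and of the 3 measured genes on each side, in gene order, for shCXCR4 I and shCXCR4 II. DACH1 and EYA4 stand at -4.41 to -2.46, while all 12 neighbours lie between -0.42 and 0.75.

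Genes tied to the network by function were read from 5 lists. Of 14 measured family members and PAX partners, 0 rose and 3 fell in shCXCR4 I against Mock by limma, and 0 rose and 2 fell in shCXCR4 II, where 9.97% and 11.0% of all genes rose and 13.6% and 15.1% fell. These shares are the background of the other lists too. The median difference of this list was -0.03 and -0.02, beside 0.02 for all genes in each line. Under other settings at an adjusted p under 0.05 the count in shCXCR4 I ranged from 2 to 5. It was 5 with centred arrays, with a trended and robust variance and among genes of mean log2 of at least 5. Those settings called 4837 and 5221 of 19775 genes and 4652 of 10871, against 4670 of 19775 otherwise. SOBP, a partner of sine oculis proteins, fell in both lines (-0.98, adjusted p = 2.18e-06, and -0.55, adjusted p = 0.000357) and was 0.68 higher in Mock than in Parental (adjusted p = 7.9e-05). With the probe sets of SOBP averaged these were -0.16, -0.05 and 0.09 and did not pass. The corepressor TLE3 fell in both lines (-0.24 and -0.30), the former call ending with quantile normalization (-0.16, adjusted p = 0.0912) and the latter passing there at -0.20, and the eye factor PAX6 fell in shCXCR4 I (-0.44). TLE1, a Groucho corepressor, was lower in Mock than in Parental (-0.63). PAX8, a marker of ovarian carcinoma, read 10.2 in Parental and shCXCR4 I, 10.1 in shCXCR4 II and 10.0 in Mock and was not called. TLE3, PAX6 and PAX8 were chosen after their values were seen, as were the list genes below that are named without being the largest.

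Of 15 corepressor partners of DACH1 and SKI, 2 rose and 6 fell in shCXCR4 I, and 1 rose and 5 fell in shCXCR4 II, beside 9.97% and 11.0% of all genes that rose and 13.6% and 15.1% that fell, with medians of -0.15 and -0.12 beside 0.02 for all genes. In a fit of the compared groups alone the 6 calls in shCXCR4 II were 3. SKIL, a SKI-type repressor of TGF-beta signalling and itself related to DACH1, fell in both lines (-1.00, adjusted p = 2.24e-06, and -1.61, adjusted p = 1.99e-08). SKIL was 0.44 higher in Mock than in Parental (adjusted p = 0.00299), a call that ended with its probe sets averaged (0.11, adjusted p = 0.283). Against Parental SKIL was lower in both lines as well, at -0.56 (adjusted p = 0.000369) and -1.17 (adjusted p = 5.6e-07). With its probe sets averaged, SKIL differed by -0.33 and -0.59 from Mock and by -0.22 and -0.48 from Parental, all past the test. HDAC1, the deacetylase, fell in both lines (-0.58 and -0.29, the latter call ending in a fit of the compared groups alone, adjusted p = 0.0511), as did the TGF-beta mediator SMAD3 (-0.44 and -0.47). JUN rose in shCXCR4 I (0.32, adjusted p = 0.00319). ESR1, the estrogen receptor, rose in shCXCR4 II (0.37, adjusted p = 0.00284), which was 0.07 (adjusted p = 0.313) with its probe sets averaged. TBL1X was lower in Mock than in Parental (-0.49, adjusted p = 0.000136), which was -0.10 once _x_at and _s_at probe sets were dropped (adjusted p = 0.594).

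Of 11 genes described as repressed by DACH1, 3 rose and 3 fell in shCXCR4 I, and 1 rose and 2 fell in shCXCR4 II, beside the same shares of all genes. Without _x_at and _s_at probe sets 7 of the 11 were measured and 2 were called in shCXCR4 I. The neutrophil chemokine CXCL8 rose by 1.60 in shCXCR4 I (adjusted p = 9.04e-10), and CXCL1 (1.27) and the stem cell factor KLF4 (0.96) rose with it. In shCXCR4 II KLF4 rose by 0.28 (adjusted p = 0.0274), a call that ended with centred arrays (0.20, adjusted p = 0.108), with its probe sets averaged (0.12, adjusted p = 0.180), without Mock replicate 1 (0.21, adjusted p = 0.0986) and without shCXCR4 II replicate 2 (0.24, adjusted p = 0.0961). CXCL8 differed between the lines by 1.63 (adjusted p = 8.01e-09) and KLF4 by 0.68 (adjusted p = 0.000288), beside -0.10 for DACH1. DACH1 was below the array medians in both lines, where a difference may be understated. Its other probe sets gave -0.18 and 0.30 between the lines without passing. IL6, an inflammatory cytokine, fell in both lines (-0.77 and -0.69), and so did cyclin D1, CCND1 (-0.36 and -0.59). The CCND1 call in shCXCR4 I ended with its probe sets averaged (-0.14) and changed sign without _x_at and _s_at probe sets (0.09, adjusted p = 0.648), where that in shCXCR4 II was -0.37 and passed. With its probe sets averaged, KLF4 passed at 0.54 in shCXCR4 I and at 0.43 between the lines. In Mock against Parental CXCL1 was higher (0.73) and CXCL8 lower (-0.59), while DACH1 was higher. Any relation of these genes to the level of DACH1 was not tested. The median of the list was -0.04 in shCXCR4 I and -0.15 in shCXCR4 II.

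Of 13 genes described as targets of sine oculis or EYA proteins, 1 rose and 3 fell in shCXCR4 I and 2 rose and 5 fell in shCXCR4 II, against the background of 9.97% and 11.0% that rose and 13.6% and 15.1% that fell. The median difference of these 13 genes was 0.03 and 0.04, beside 0.02 for all genes in each line. Without _x_at and _s_at probe sets 9 of the 13 were measured, with 2 and 4 called. Cyclin A1, CCNA1, a described target of sine oculis factors, fell in both lines (-0.55, adjusted p = 2.02e-05, and -0.62, adjusted p = 6.75e-06) and was lower in Mock than in Parental (-0.82, adjusted p = 6.41e-07). CCND1 sits in this list as well, and was 0.35 higher in Mock than in Parental (adjusted p = 0.00429). MYC rose in shCXCR4 I (0.31, adjusted p = 0.00529). MYOD1, the muscle determination factor, rose in shCXCR4 II (0.42, adjusted p = 0.0174) but not without Mock replicate 2 (adjusted p = 0.0715) or shCXCR4 II replicate 1 (adjusted p = 0.0664). Of 8 substrates and partners of the EYA phosphatases, 0 rose and 2 fell in shCXCR4 I and 0 rose and 3 fell in shCXCR4 II by limma, beside those same shares. The median difference of these 8 genes was -0.12 in shCXCR4 I and -0.10 in shCXCR4 II. With 6 of the 8 measured once _x_at and _s_at probe sets were dropped, 1 was called in each line, and 1 in shCXCR4 I with probe sets averaged. MDC1, a DNA damage mediator, fell in both lines (-0.56, adjusted p = 0.000132, and -0.32, adjusted p = 0.00792), the latter call ending with quantile normalization (-0.20, adjusted p = 0.0719). The damage kinase ATM fell in shCXCR4 II (-0.43, adjusted p = 0.00358), which was -0.09 (adjusted p = 0.253) with its probe sets averaged. MAPK8, a stress kinase, was lower in Mock than in Parental (-0.32, adjusted p = 0.00361).

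**Figure D5:**
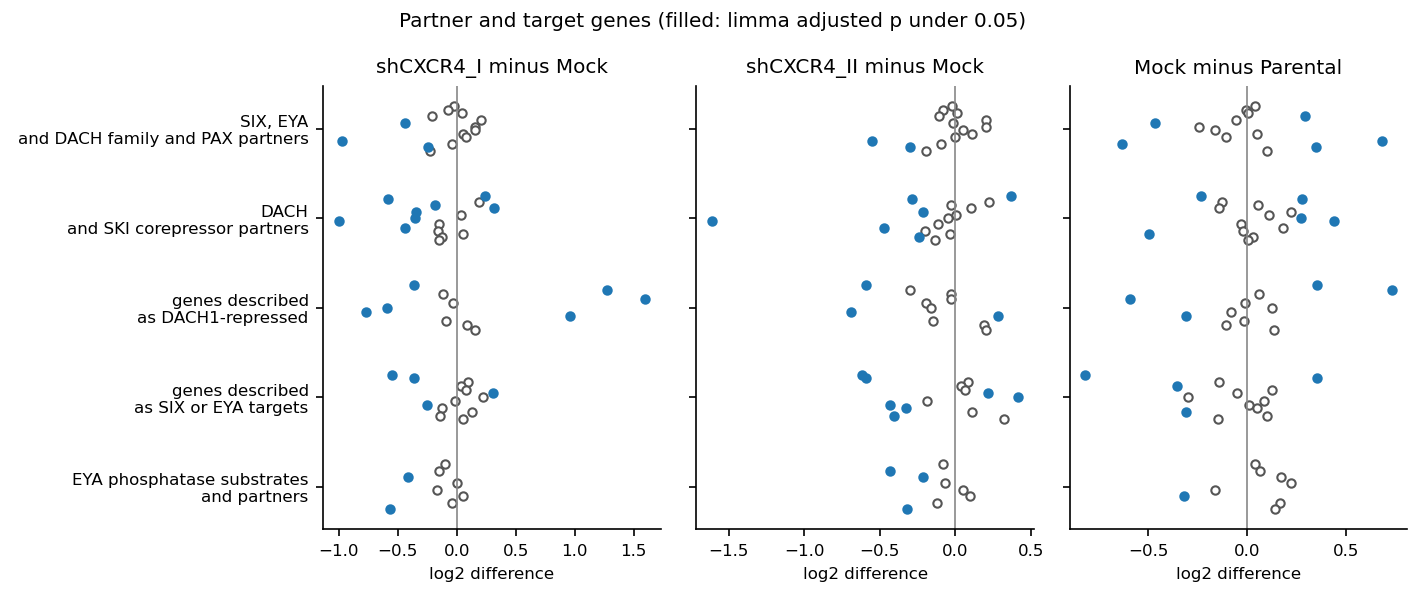
Log2 differences of the measured genes of the 5 lists, each point a gene, for shCXCR4 I minus Mock, shCXCR4 II minus Mock and Mock minus Parental, with filled points for genes at an adjusted p under 0.05. In the corepressor list 6 of 15 genes fell in shCXCR4 I and 5 of 15 in shCXCR4 II, with SKIL lowest at -1.00 and -1.61.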

How the data were processed

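The 12 arrays of IGROV-1 RNA (Parental, Mock, shCXCR4 I, shCXCR4 II) were deposited by the authors as log2 values for each probe set. Per the submitters' processing notes these came from RMA (R 2.6.0), and per the labels' protocols each array took 6 µg of total RNA. The sources used here do not give the background step or chip definition file, and no scanner files were used. RMA can pull dim probe sets together, so differences between low values may be understated, which was not measured here. No values were rescaled.

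Of 54675 probe sets, 41097 carry a single gene symbol, 1801 several and 11777 none. By Entrez number 41043 matched the gene table, and 0 symbols were updated. Where a gene had several such probe sets, the brightest on average stood for it (19775 genes). limma 3.58.1 in R 4.3.3 fitted group means over all 12 arrays, with 5.19 prior and 8 residual degrees of freedom. Tests were two-sided with Benjamini-Hochberg adjustment over all genes, at 0.05. The script was tested on simulated data. Upstream windows came from RefSeq for 5 of the genes. EYA2 and SIX5 had no entry there, and EYA1 was not looked up.

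Genes, lists and tests were chosen with earlier results of these data known. Named genes were the 8 network genes, CXCR4, the neighbours of DACH1 and EYA4, the 5 genes nearest to each, and from each list the called gene with the largest difference per direction. Lists are described by counts and medians, with no set test. Alternatives were 11 settings (2 choices of probe sets, 2 filters on dim genes, quantile normalization, centring, trended and robust variance, array weights, only the compared groups, a replicate block, adjusted p under 0.01) and leaving out each array. Figures were drawn with Python 3.11.15 and matplotlib 3.10.9.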

Additional observations from a re-analysis of the deposited data

Results flagged for a closer look

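EYA3 was singled out because its change differed between the knockdown lines by a test of the difference itself. The log2 difference of shCXCR4 I minus shCXCR4 II was -0.40 on the probe set that represents the gene (SE 0.08, adjusted p = 0.00607, 3 of 3 arrays of shCXCR4 I below all of shCXCR4 II). Of all genes 7.15% passed between the lines. The other EYA3 probe sets did not pass, with -0.25 on 206379_at (adjusted p = 0.244) and -0.39 on 1552314_a_at (adjusted p = 0.136). On the dim 1554844_at the difference was 0.00.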

How the results depend on the processing

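Falls of EYA3 in shCXCR4 I against Mock, Parental and shCXCR4 II, of SIX4 in shCXCR4 I against Mock and the rise of SIX2 in shCXCR4 II against Mock passed under every alternative in which the gene was tested, adjusted p under 0.01 and each left-out array included. In shCXCR4 I minus Mock the 4 called of 6 genes were 2 with quantile normalization and 2 at an adjusted p under 0.01. Those settings called 3943 and 2589 of all 19775 genes, against 4670 otherwise. The filter at a mean log2 of at least 5 kept EYA3, SIX4 and SIX5, so EYA2 and SIX2 were not retested there. Of these 3 genes 2 were called, where 4652 of 10871 genes were. With each array left out the count was 2 to 5, beside 3314 to 5184 of all genes. In Mock minus Parental the 2 called were 0 with probe sets averaged, 1 at an adjusted p under 0.01, and 1 to 2 with each array left out. Of all genes 2762, 1585 and 2079 to 3308 were called there, against 2968 otherwise. In shCXCR4 II minus Parental the 0 called were 1 with array weights, and 0 to 1 with each array left out. Of all genes 4711 and 2215 to 4033 were called there, against 3353 otherwise. The counts of the other 3 comparisons stayed within 1.5 times. Of the counts of called list genes, 14 moved by more than 1.5 times.

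Some signs turned, none of them past the test after turning, and the cause was not tested. With probe sets averaged, shCXCR4 I minus shCXCR4 II became 0.0070 for DACH1 and 0.021 for EYA4, and shCXCR4 II minus Parental became 0.032 for SIX4. Without _x_at and _s_at probe sets, the line difference of EYA1 became -0.077. The same setting turned called differences: PCDH9 went from -0.52 to 0.042 in Mock minus Parental, from -0.29 to 0.059 in shCXCR4 I minus Parental and from -0.37 to 0.054 in shCXCR4 II minus Parental, and CCND1 from -0.36 to 0.092 in shCXCR4 I minus Mock. With quantile normalization EYA1 became -0.035 in shCXCR4 II minus Parental and SIX5 -0.0061 between the lines. With centred arrays EYA1 became -0.032 in shCXCR4 II minus Parental and EYA3 0.023 in Mock minus Parental. With each array left out in turn, values spanned 0 for shCXCR4 II minus Parental of EYA1 (-0.063 to 0.091) and SIX4 (-0.11 to 0.0011), for the line difference of EYA2 (-0.029 to 0.054), EYA4 (-0.32 to 0.0085) and SIX5 (-0.022 to 0.055), and for Mock minus Parental of EYA3 (-0.072 to 0.042).

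Replicate numbers did not pair the arrays: deviations of same-numbered arrays correlated at -0.08 to 0.16, and 2 of 12 arrays correlated best with their own number. With a replicate block 4, 3 and 2 genes were called in shCXCR4 I minus Mock, shCXCR4 II minus Mock and Mock minus Parental. Beside them 4549, 5013 and 2771 of all 19775 genes were called. The added gene was EYA2 in shCXCR4 II minus Mock (0.19, adjusted p = 0.0347). Among all called genes, 42.2% were higher in shCXCR4 I than in Mock, 53.7% with quantile normalization and 23.8% with centred arrays. In shCXCR4 II these were 42.2%, 54.6% and 21.3%, and in Mock against Parental 65.2%, 54.8% and 75.2%. The number of arrays and low signal of EYA1, EYA2 and SIX2 limit what could be detected.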
